A study of Mus musculus with 6 samples.

Results

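The 10 genes described here encode the PGC-1 family of coactivators (Ppargc1a, Ppargc1b, Pprc1), the nuclear transcription factors they act through (Nrf1, Gabpa, Esrra) and the factors that transcribe mitochondrial DNA (Tfam, Tfb1m, Tfb2m, Polrmt). They were chosen by name and not by their values. Every gene probe of the arrays whose transcript accession belongs to 1 of them was taken, which gave 16 probes of 39429, for 10 of the 20659 genes that could be given a symbol. Of these 16 probes, 12 (for 8 genes) were bright enough to be tested, 9 (for the same 8 genes) were well above background on all 6 arrays, and 3 were well above background on none. Ppargc1a and Ppargc1b had no tested probe.

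RNA came from a mouse line of podocytes, which are epithelial cells around the capillaries of the kidney's filter, immortalised with a temperature-sensitive SV40 T antigen. All cultures were grown at 33 °C, moved to 37 °C to differentiate and harvested after 10 days. Cells of the control group (shControl, 2 arrays) carried a lentiviral pGIPZ vector with a scrambled hairpin, and cells of the other 2 groups carried the same vector with a hairpin against the long non-coding RNA Tug1, as 1 clone each (shTug1 clone 2 and shTug1 clone 3, 2 arrays each). The mouse strain and the hairpin sequences are not given in the sources used here. The labels call the 2 arrays of a group biological replicates without naming separate cultures, so p-values measure the spread between these arrays. The comparisons ask which of these genes differed between cells with the Tug1 hairpin and control cells, and whether the 2 clones differed.

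PGC-1 coactivators do not bind DNA themselves. They are recruited by NRF1, by GABPA (the DNA-binding subunit of NRF2, also called GABP) and by the orphan nuclear receptor ERRα (Esrra), which switch on nuclear genes for respiration, among them the gene for TFAM. TFAM packages mitochondrial DNA and, with TFB2M and the mitochondrial RNA polymerase POLRMT, starts its transcription, while TFB1M methylates the RNA of the mitochondrial ribosome. Podocytes have many mitochondria, and PGC-1α (Ppargc1a) is studied in them for its part in diabetic kidney disease.

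RefSeq promoter sequences (GRCm38.p6) were at hand for 9 of the 10 genes, as 10 windows of 250 bases before a transcript start, since Nrf1 has 2. The 5 genes with a probe that passed the test against control are shown, because on the scale used below 3 of them fell and 2 rose and their upstream letters can be set side by side. The windows are chr19:6921809-6922058 (minus strand) for Esrra, chr16:84834874-84835123 (plus strand) for Gabpa, chr10:71238045-71238294 (minus strand) for Tfam, chr1:179546277-179546526 (minus strand) for Tfb2m and chr10:79746582-79746831 (minus strand) for Polrmt. They read 5′ to 3′ on the gene's strand and end just before the transcript start, and capitals mark matches to the GABPA core CCGGAAG or the SP1 core GGGCGG on either strand.
Esrra: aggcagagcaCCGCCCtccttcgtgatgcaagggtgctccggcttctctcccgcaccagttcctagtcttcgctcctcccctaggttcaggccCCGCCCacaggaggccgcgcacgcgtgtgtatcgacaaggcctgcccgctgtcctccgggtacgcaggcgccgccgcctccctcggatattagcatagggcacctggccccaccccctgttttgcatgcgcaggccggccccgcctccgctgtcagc
Gabpa: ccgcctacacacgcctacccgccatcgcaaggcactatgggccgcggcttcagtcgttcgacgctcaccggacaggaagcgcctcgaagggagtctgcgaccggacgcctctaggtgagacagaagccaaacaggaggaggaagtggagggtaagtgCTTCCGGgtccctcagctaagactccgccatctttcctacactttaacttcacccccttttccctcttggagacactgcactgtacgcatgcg
Tfam: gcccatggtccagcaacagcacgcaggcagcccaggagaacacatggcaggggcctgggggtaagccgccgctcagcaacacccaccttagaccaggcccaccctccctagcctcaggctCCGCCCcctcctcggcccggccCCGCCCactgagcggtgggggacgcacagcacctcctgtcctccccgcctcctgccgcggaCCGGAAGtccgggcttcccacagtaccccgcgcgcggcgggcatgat
Tfb2m: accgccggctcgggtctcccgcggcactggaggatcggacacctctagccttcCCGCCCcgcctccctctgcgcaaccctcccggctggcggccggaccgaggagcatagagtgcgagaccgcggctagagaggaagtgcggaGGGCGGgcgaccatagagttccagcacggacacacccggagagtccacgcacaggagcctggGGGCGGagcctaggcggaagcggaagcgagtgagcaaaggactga
Polrmt: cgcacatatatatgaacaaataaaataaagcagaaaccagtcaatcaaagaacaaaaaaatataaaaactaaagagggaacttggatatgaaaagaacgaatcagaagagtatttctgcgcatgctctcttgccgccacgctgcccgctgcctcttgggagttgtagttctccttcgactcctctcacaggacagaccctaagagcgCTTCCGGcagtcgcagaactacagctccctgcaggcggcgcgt
The GABPA core was found in 3 of the 10 windows, those of Gabpa, Tfam and Polrmt, and in 6.91% of 32851 promoter windows of this length. It lay 93 to 87 bases before the start in Gabpa, 47 to 41 bases in Tfam and 43 to 37 bases in Polrmt. The SP1 core was found in 5 of the 10 windows (32.7% of all windows), those of Esrra, Tfam, Tfb1m, Tfb2m and 1 of Nrf1. The NRF1 core (GCGCA, any base, then GCGC; 3.74% of all windows) and the ERRα half-site AAGGTCA (4.08%) were found in 0 of the 10. These cores overlap in none of the windows shown. Polrmt and Tfam both hold the GABPA core near the start, and on that scale their probes moved in opposite directions (Polrmt by 0.15 with no scaling between arrays).

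Arrays with the same scan date in the file headers were taken as 1 slide. By that rule the control arrays shared 1 slide and the 4 shTug1 arrays another, and in each comparison with control the slide and the hairpin cannot be told apart. The arrays also differed in brightness: the 75th percentile of the processed signal was 324.3 and 363.3 on the control arrays and between 569.2 and 1055 on the shTug1 arrays. Levels are therefore given as log2 of the signal relative to the 75th percentile of its own array, and on that scale the median of all 25545 tested probes was 0.57 lower (log2) in the mean of the clones than in control. Tug1 itself was not lower on the arrays labelled clone 2: its probe measured on every array gave −2.88 and −2.49 in control, −1.86 and −1.88 in clone 2, with −3.10 and −3.23 in clone 3 (log2). Its other tested probe (A_51_P119401) was well above background on no control array and entered the test through clone 2. It was called higher in clone 2 (at least 2.79-fold on this scale, limma adjusted p = 0.0172). The fitted difference there was 3.46, and 0.27 to 5.01 over 5 scalings. In the mean of the clones it was 2.39 (adjusted p = 0.0306), but −0.015 with normexp. No fold is given for the mean because only 3 of 4 shTug1 arrays were well above background. In clone 3 neither probe passed (−0.48, adjusted p = 0.329, and 1.33, adjusted p = 0.256), and the first gave 0.52 with no scaling. The groups are hence called by their labels, and no direction is drawn from Tug1. Of 11 podocyte markers 8 were well above background on all 6 arrays, among them Nphs1, Wt1 and Synpo. Magi2 was so on 4 arrays, and Podxl and Tcf21 on 1 array each. The summed level of the 11 (linear, relative to the 75th percentile) was 36.5 to 42.3 in control, 23.1 on both clone 2 arrays and 12.5 to 17.2 in clone 3. The summed levels of the lists for other cells were also highest in control on this scale: 1020 to 1070 in control against 390 to 581 on the shTug1 arrays for 10 mesangial and stromal markers (Des on no array), 7.27 to 9.63 against 3.45 to 4.92 for 9 endothelial markers (Emcn, Tek and Tie1 on none), 260.0 to 417 against 66.7 to 125 for 12 tubular and parietal markers (Cdh1 and Slc12a1 on none), and 15.0 to 30.2 against 4.43 to 6.95 for 9 immune markers (8 on the array, Lyz2 above background on none). In control most of the podocyte sum came from Cd2ap (4.51 and 4.72, log2). Most of the stromal sum came from Acta2 and Tagln, of the tubular sum from Cdh16 and Aqp1, and of the immune sum from Csf1r and Itgam. Single genes went the other way. Cd14 read −1.58 and −0.72 in control and −0.32 to 0.29 on the shTug1 arrays. Cldn1, well above background on 3 arrays, read −6.21 and −5.70 against −4.95 to −2.61. The part of other cells in the results was not tested, and fewer cells of a type cannot be told apart from less RNA per cell.

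Against control, 3 of the 12 tested probes rose (2 of Tfam and 1 of Gabpa) and 3 fell (Esrra, Tfb2m and Polrmt) in the mean of the clones; none of the 3 falls passed after quantile normalization or with no scaling between arrays. Of all 25545 probes 39.4% passed in this comparison (11.8% higher and 27.6% lower), so passing was common and the 6 of 12 are read against that share. In clone 2 against control 4 of the 12 rose and 2 fell, where 43.2% of all probes passed (12.4% higher, 30.9% lower). In clone 3 against control 2 rose and 0 fell, where 8.99% of all probes passed (4.78% higher, 4.21% lower). Between clone 3 and clone 2, 1 of 12 was lower and 0 higher, where 1.86% of all probes passed (0.384% higher, 1.48% lower). These calls are from limma with Benjamini-Hochberg adjustment over all 25545 probes at 0.05, and the comparisons with control share the control arrays. A probe that was dim in 1 group could enter the test only through a group in which it was bright, so the 12 do not stand for all 16. Over the 9 probes well above background on all 6 arrays, 2 were called higher and 3 lower for the mean of the clones, 2 and 2 for clone 2, 2 and 0 for clone 3, and 0 and 0 between the clones, where 1 had an unadjusted p below 0.05. The 1 lower call between the clones is thus on a dim probe. The counts for the 9 were the same with the test limited to all 19799 probes well above background on all 6 arrays. Of those, 1939 were called higher and 7383 lower for the mean of the clones, and 1805 and 7983 for clone 2. They were 1266 and 2095 for clone 3, with 6 and 38 between the clones. The split of calls over the whole array moved with the scaling: 3009 probes higher and 7045 lower here, 3446 and 3438 after quantile normalization, and 8390 and 139 with no scaling between arrays. Leaving out the scaling moved all probes of a comparison by the same amount. For the mean of the clones the median of all tested probes was then 0.70.

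**Figure D1:**
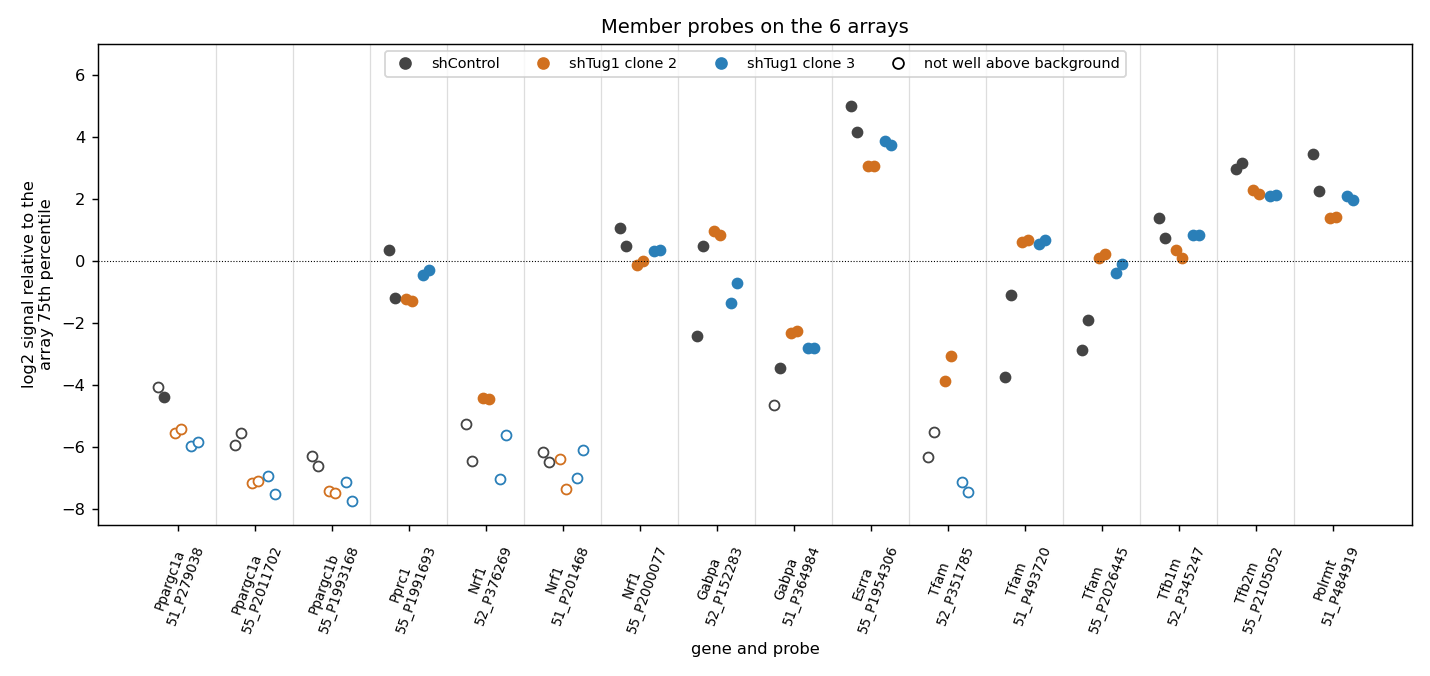
Log2 signal relative to the array's 75th percentile (vertical axis) for the 16 probes (horizontal axis), 1 point per array, coloured by group, with open points where the probe was not well above background on that array. The 2 bright Tfam probes (51_P493720 and 55_P2026445) sit between −3.73 and −1.08 in control and between −0.39 and 0.69 on the shTug1 arrays, while Esrra sits between 4.15 and 4.99 in control and between 3.07 and 3.86 on the shTug1 arrays.

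Of the coactivators, Ppargc1a and Ppargc1b were at the limit of what the arrays could measure. The brighter Ppargc1a probe (A_51_P279038) read −4.06 and −4.38 in control, −5.54 and −5.42 in clone 2, with −5.95 and −5.84 in clone 3 (log2 level), and only control replicate 2 was well above background. On this scale the control arrays lay above all 4 shTug1 arrays by value, and no fold is given because 1 of the 2 control arrays was itself not well above background. Before scaling the order was different: the processed signal averaged 18.5 in control, 22.4 in clone 2 and 11.9 in clone 3. The direction for Ppargc1a in clone 2 therefore turns with the scaling. The second Ppargc1a probe (A_55_P2011702) was well above background on no array and read between −7.52 and −5.53. Ppargc1b, which encodes PGC-1β, has 1 probe (A_55_P1993168), also well above background on no array, between −7.72 and −6.27. No difference is given for either.

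Pprc1, the third and growth-responsive family member, was the one coactivator measured on all 6 arrays. Its probe (A_55_P1991693) read 0.36 and −1.17 in control, −1.24 and −1.29 in clone 2, with −0.45 and −0.27 in clone 3. The 2 control arrays lay apart by more than the clones did, and the shTug1 arrays overlapped them. The difference was −0.41 (SE 0.44, limma adjusted p = 0.464) for the mean of the clones, −0.86 (SE 0.51, adjusted p = 0.191) for clone 2 and 0.04 (SE 0.51, adjusted p = 0.963) for clone 3. Control replicate 1 decided its sign: without that array the mean difference was 0.36 (adjusted p = 0.241) and without control replicate 2 it was −1.18 (adjusted p = 0.00862). In these and later values with 1 control array left, the spread comes from the other groups and the lone array is assumed to vary like them. With 1 array left in a clone, fewer probes passed over the whole array for that clone against control and for the mean of the clones. The same held between the clones without either clone 3 array. Calls lost in such fits are therefore not particular to a gene.

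Of the transcription factors, Nrf1, which encodes nuclear respiratory factor 1, did not pass in any comparison on its bright probe. That probe (A_55_P2000077) read 1.07 and 0.48 in control, −0.11 and 0.02 in clone 2, with 0.33 and 0.37 in clone 3. All 4 shTug1 arrays lay below both controls, and the mean difference of −0.63 (SE 0.31, adjusted p = 0.135) was close to that of the median probe (−0.57). It was −0.33 (adjusted p = 0.264) without control replicate 1 and −0.92 (adjusted p = 0.0155) without control replicate 2. A second probe (A_52_P376269) was well above background in clone 2 only, at −4.42 and −4.44, and entered the test through that group. On the scale used here it was at least 2.1-fold higher there than in clone 3 (fitted means −4.43 and −6.32). That difference did not pass (adjusted p = 0.212). Over 5 scalings the fitted difference of clone 3 from clone 2 ran from −2.43 to −0.07, so the bound does not carry over to every scaling. The mean difference of this probe from control was 0.47 (adjusted p = 0.451). It was −0.68 (adjusted p = 0.0227) with the normexp background correction and 1.74 (adjusted p = 0.0357) with no scaling, so it has no settled direction. The third Nrf1 probe (A_51_P201468) was well above background on no array.

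Gabpa was higher on the shTug1 arrays on 1 of its 2 probes. The dimmer probe (A_51_P364984) read −4.65 and −3.45 in control, −2.33 and −2.25 in clone 2, with −2.79 and −2.80 in clone 3, and it was not well above background on control replicate 1. All 4 shTug1 arrays lay above both controls, and the level rose by 1.51 (SE 0.39, adjusted p = 0.0234) in the mean of the clones and by 1.77 (SE 0.44, adjusted p = 0.0208) in clone 2, while clone 3 differed by 1.26 (SE 0.44, adjusted p = 0.0978). For the mean it was 0.91 (adjusted p = 0.0425) without control replicate 1 and lost its call with normexp (0.15, adjusted p = 0.554) and without clone 3 replicate 1 or 2 (adjusted p = 0.0712 and 0.084). The clone 2 difference lost it without clone 2 replicate 1 or 2 (adjusted p = 0.064 and 0.0651).

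The brighter Gabpa probe (A_52_P152283) gave another picture. It read −2.40 and 0.49 in control, 0.96 and 0.83 in clone 2, with −1.34 and −0.72 in clone 3. The control arrays spanned 2.89 on the log2 scale, clone 2 lay above both of them and clone 3 lay between them. For the mean of the clones the difference was 0.89 (SE 0.71, adjusted p = 0.33), with a 95% interval from −0.78 to 2.55, and it was −0.56 (adjusted p = 0.222) without control replicate 1 and 2.33 (adjusted p = 0.00443) without control replicate 2. Clone 3 was 1.92 lower than clone 2 (SE 0.82, adjusted p = 0.379), and this difference passed with only the 2 clones in the fit or with either control array left out (adjusted p = 0.0451).

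Esrra fell on the shTug1 arrays, in clone 2 more than in clone 3 by value. Its single probe (A_55_P1954306) read 4.99 and 4.15 in control, 3.08 and 3.07 in clone 2, with 3.86 and 3.73 in clone 3. The order was control, clone 3, clone 2, with no overlap between groups. The median of all tested probes had that order too (−0.72 in clone 2 and −0.41 in clone 3, against control). Relative to it, clone 3 differed from clone 2 by 0.36 on the Esrra probe. The share of all probes with this order was not counted. Esrra differed by −1.14 (SE 0.34, adjusted p = 0.0341) in the mean of the clones and by −1.49 (SE 0.39, adjusted p = 0.0224) in clone 2, while clone 3 differed by −0.78 (SE 0.39, adjusted p = 0.19) and clone 3 from clone 2 by 0.72 (SE 0.39, adjusted p = 0.379), so neighbours in that order did not differ past the threshold. Relative to the median probe the mean difference was −0.56. It was −0.37 (adjusted p = 0.189) after quantile normalization and 0.14 (adjusted p = 0.814) with no scaling, and it was −0.72 (adjusted p = 0.0627) without control replicate 1. The call was also lost without any 1 of the 4 shTug1 arrays (adjusted p from 0.0747 to 0.117), and that of clone 2 after quantile normalization (−0.53, adjusted p = 0.115), with no scaling (0.048, adjusted p = 0.948), without either clone 2 array (0.0902 and 0.0834) and with only clone 2 and control in the fit or either clone 3 array left out (0.0547).

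Of the mitochondrial factors, Tfam showed the widest difference of the members, and it was higher in both clones. Its probe A_51_P493720 read −3.73 and −1.08 in control, 0.62 and 0.69 in clone 2, with 0.56 and 0.67 in clone 3. Its probe A_55_P2026445 read −2.86 and −1.91 in control, 0.09 and 0.24 in clone 2, with −0.39 and −0.11 in clone 3. On both probes all 4 shTug1 arrays lay above both controls, and each clone's arrays lay closer to each other than the control arrays did.

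The first of these rose by 3.04 (SE 0.65, 95% interval 1.53 to 4.56) in the mean of the clones, with an adjusted p of 0.017, which is an 8.24-fold higher level. It rose by 3.06 (SE 0.75, adjusted p = 0.0198) in clone 2 and by 3.02 (SE 0.75, adjusted p = 0.0489) in clone 3. The second probe rose by 2.34 (SE 0.36, 95% interval 1.51 to 3.17, adjusted p = 0.00954), or 5.06-fold, with 2.55 (SE 0.41, adjusted p = 0.00947) in clone 2 and 2.13 (SE 0.41, adjusted p = 0.0324) in clone 3. The clones did not differ past the threshold on either probe: clone 3 minus clone 2 was −0.04 (95% interval −1.79 to 1.71, adjusted p = 0.976) and −0.41 (95% interval −1.37 to 0.54, adjusted p = 0.537). These intervals do not show that the clones were alike. The size of the first rests on control replicate 1, without which it was 1.72 (adjusted p = 0.0313), against 4.37 without control replicate 2, while the second was 1.86 and 2.81 in turn. The calls of the mean were lost without clone 3 replicate 1 (first probe, adjusted p = 0.0517) and without clone 3 replicate 2 (both probes, 0.0636 and 0.0502). The calls of clone 3 were lost on both probes without clone 3 replicate 1 or replicate 2. Calls were lost over the whole array in these fits, which leave 1 array for clone 3, so the loss is not particular to Tfam. Leaving out any 1 array, the clone 3 difference ran from 1.70 to 4.35 on the first probe and from 1.65 to 2.61 on the second.

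Under all 6 ways of scaling the arrays, both bright Tfam probes were called higher in the mean of the clones, from 1.97 to 4.32 on the first and from 1.52 to 3.61 on the second. The processed signal of the first was 24.4 and 172 in control and between 839 and 1630 on the shTug1 arrays before any scaling. For clone 2 alone the first probe passed under 5 of the 6 scalings (adjusted p = 0.0537 after quantile normalization) and for clone 3 alone under 3 of the 6, while the second passed under 6 of 6 for each clone. With no filter on dim probes the first probe's call for clone 3 was lost (adjusted p = 0.069).

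The third Tfam probe (A_52_P351785) was well above background in clone 2 only. It read −6.30 and −5.51 in control, −3.88 and −3.04 in clone 2, with −7.11 and −7.43 in clone 3. It was at least 1.8-fold higher in clone 2 than in control (fitted difference 2.45, adjusted p = 0.0119) and at least 4.57-fold higher in clone 2 than in clone 3 (fitted difference −3.81, adjusted p = 0.0146). That pattern was not seen on the other 2 Tfam probes, on which both clones lay above control. With normexp the fitted differences were −0.16 (adjusted p = 0.628) and −0.62 (adjusted p = 0.254), and the difference between the clones also lost its call after quantile normalization (−3.71, adjusted p = 0.057) and without clone 3 replicate 1 or 2 (adjusted p = 0.131 and 0.0747). The part of each Tfam transcript that a probe reads was not analysed here.

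**Figure D2:**
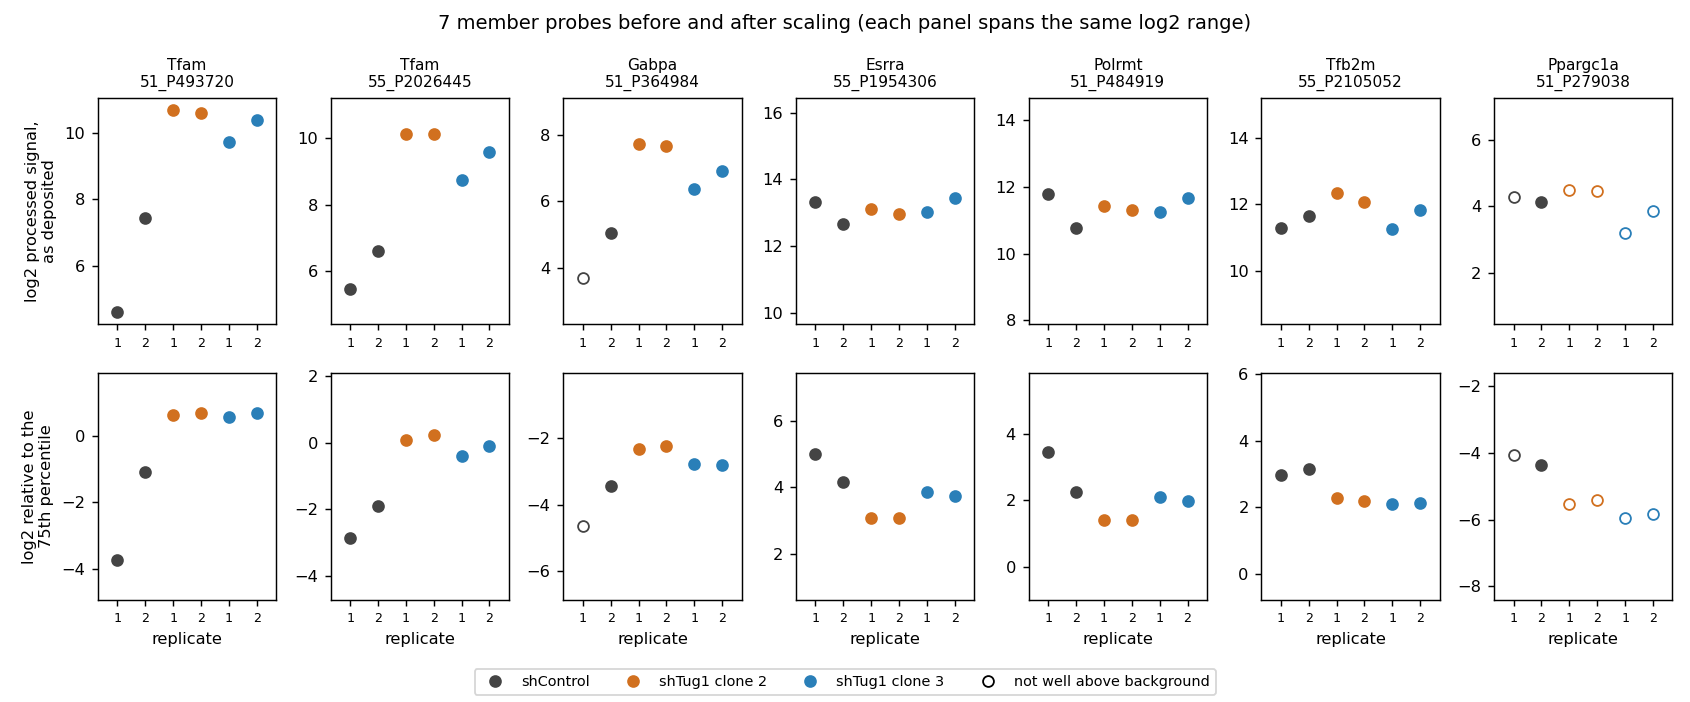
Top, log2 of the processed signal as deposited, and bottom, the same after subtracting each array's 75th percentile, for 7 probes on the 6 arrays (1 point per array, replicate on the horizontal axis, coloured by group, open where not well above background); every panel spans the same log2 range. The 2 Tfam probes and the Gabpa probe are higher on all 4 shTug1 arrays in both rows, while Esrra, Polrmt and Tfb2m are lower on all 4 only in the bottom row and Ppargc1a in clone 2 lies above control in the top row and below it in the bottom row.

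Polrmt, the RNA polymerase of mitochondria, fell in the mean of the clones on the 75th percentile scale. Its probe (A_51_P484919) read 3.44 and 2.26 in control, 1.40 and 1.42 in clone 2, with 2.10 and 1.98 in clone 3. The order was again control, clone 3, clone 2 without overlap, which is also that of the median probe. Relative to the median probe, clone 3 differed from clone 2 by 0.27. The mean difference was −1.13 (SE 0.38, adjusted p = 0.0497), that of clone 2 was −1.44 (SE 0.44, adjusted p = 0.0349), that of clone 3 was −0.81 (SE 0.44, adjusted p = 0.221) and that between the clones was 0.63 (SE 0.44, adjusted p = 0.419). The mean difference was −0.61 (adjusted p = 0.123) after quantile normalization, 0.15 (adjusted p = 0.818) with no scaling, −0.54 (adjusted p = 0.108) without control replicate 1 and −1.72 (adjusted p = 0.00365) without control replicate 2. It also lost its call without any 1 of the shTug1 arrays (adjusted p from 0.0868 to 0.141), after median scaling (0.0678) and with no filter on dim probes (0.0566). In clone 2 the call was lost after quantile normalization (−0.83, adjusted p = 0.085), with no scaling (0.10, adjusted p = 0.896), with no filter (0.0503), without either clone 2 array (0.115 and 0.103) and with only clone 2 and control in the fit or either clone 3 array left out (0.0734).

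Tfb2m, the initiation factor that works with POLRMT, fell by a smaller amount on the same scale, with tighter replicates. Its probe (A_55_P2105052) read 2.95 and 3.15 in control, 2.28 and 2.18 in clone 2, with 2.11 and 2.13 in clone 3, so that the clones lay side by side below control. Their mean differed from it by −0.88 (SE 0.28, adjusted p = 0.0428), and neither clone passed alone (−0.82, adjusted p = 0.0722, and −0.93, adjusted p = 0.096). The difference between the clones was −0.11 (95% interval −0.87 to 0.65). It was −0.34 (adjusted p = 0.302) after quantile normalization and 0.39 (adjusted p = 0.446) with no scaling for the mean of the clones, and the call was lost without any 1 of the shTug1 arrays (adjusted p from 0.127 to 0.14), after median scaling (0.0633) and with no filter on dim probes (0.0553).

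Tfb1m, the related methyltransferase, did not pass. Its probe (A_52_P345247) read 1.39 and 0.76 in control, 0.35 and 0.11 in clone 2, with 0.84 and 0.83 in clone 3, with clone 3 between the controls. In the mean of the clones it differed by −0.55 (SE 0.32, adjusted p = 0.189), close to the median probe, by −0.23 (adjusted p = 0.447) without control replicate 1 and by −0.86 (adjusted p = 0.0222) without control replicate 2.

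**Figure D3:**
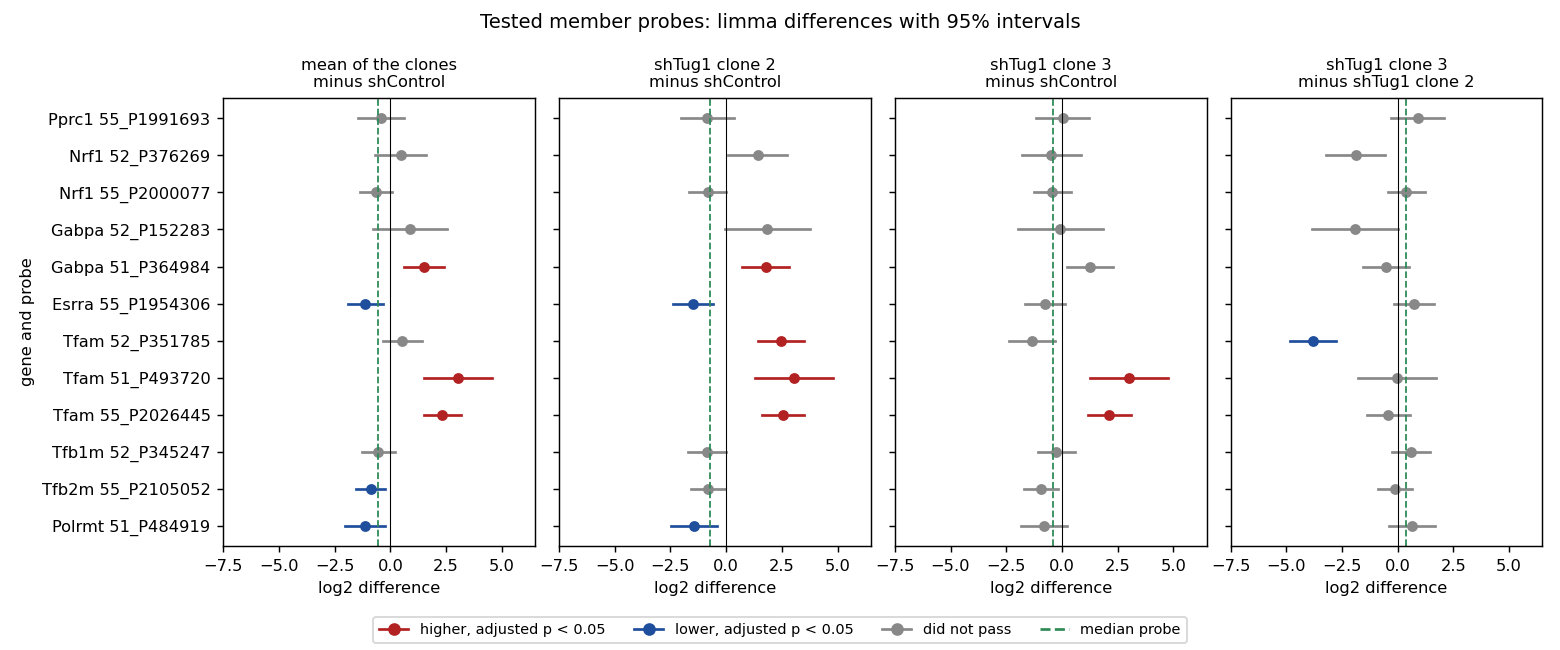
Log2 differences (points, horizontal axes) with 95% intervals (lines) for the 12 tested probes in the 4 comparisons, coloured by whether limma's adjusted p was below 0.05 and in which direction; the dashed line is the median of all tested probes. The 2 bright Tfam probes lie at 3.04 and 2.34 for the mean of the clones and the falls of Esrra (−1.14), Polrmt (−1.13) and Tfb2m (−0.88) lie nearer to the dashed line at −0.57.

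Of the factors of the mitochondrial initiation complex, Tfam was higher on its 2 bright probes and Polrmt and Tfb2m were lower on all 4 shTug1 arrays than on both controls after scaling to the 75th percentile. With no scaling all of them differed upward by value (Tfam by 4.32 and 3.61, Polrmt by 0.15 and Tfb2m by 0.39), as did the median probe (0.70). Of the 9 probes measured on all 6 arrays, 2 (both of Tfam) had all 4 shTug1 arrays above both controls, 4 (Nrf1, Esrra, Tfb2m and Polrmt) had them all below, and 3 overlapped. Over all 19799 such probes of the array the shares were 11.3% and 45.8%. The 2 control arrays lay further apart than either clone's arrays on all 9 of these probes (72.4% of all such probes).

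**Figure D4:**
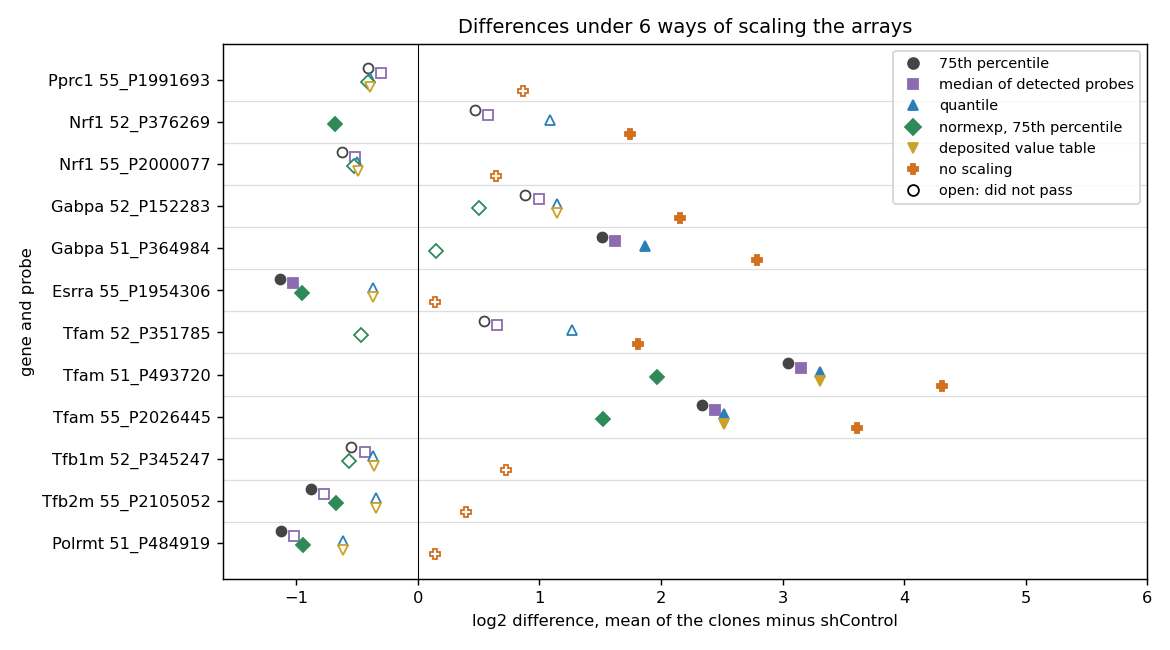
Log2 difference of the mean of the clones from control (horizontal axis) for the 12 tested probes under 6 ways of scaling the arrays, filled where the adjusted p was below 0.05 (3 probes have no value in the deposited value table). The 2 bright Tfam probes stay filled and above 1.5 throughout, while Esrra, Polrmt and Tfb2m move from about −1 to above 0 (0.14, 0.15 and 0.39 with no scaling).

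The genes whose levels followed those of Tfam, Gabpa and Polrmt most closely over the 6 arrays were found among 12331 genes with a probe well above background on all 6 arrays, for the 3 members with the widest range. For Tfam (range 4.42 on the log2 scale) they were Bag2, a cochaperone of HSP70, and Ccbe1 (Pearson r = 0.9997 and 0.9996), and 447 genes had an r above 0.95. For the brighter Gabpa probe (range 3.36) they were Csgalnact2 and Golim4 (r = 0.9951 and 0.9918), with 94 genes above 0.95. For Polrmt (range 2.04) they were Aldh3b3 and Smyd2 (r = 0.9996 for both), with 3519 genes above 0.95. The 6 points of each are 3 pairs of arrays on 2 slides that share their scaling, so these values only describe the likeness.

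Other genes of the pathway were taken from lists, with 1 probe per gene. Of 117 tested, 16 rose in the mean of the clones and 49 fell, but with no scaling between arrays 39 rose and 0 fell, so the falls named here hold on the 75th percentile scale. Of the 19 genes named from the lists for this comparison, most lost their call without clone 3 replicate 1, and all but Twnk without clone 3 replicate 2. Most probes called over the whole array lost theirs as well in these fits, which leave 1 array for clone 3. The differences of the 19 genes kept their sign there. With 1 probe per gene and all 6 arrays, 39.7% of all 21474 probes passed for the mean of the clones (10% higher and 29.6% lower), 43.2% for clone 2 (10.1% higher, 33.1% lower) and 8.76% for clone 3 (4.24% higher, 4.53% lower), and the median gene differed by −0.64 for the mean of the clones. Of 17 tested genes for replicating and transcribing mitochondrial DNA, 5 rose and 5 fell, with a median of −0.56. Twnk, the replicative helicase Twinkle, was well above background on all 4 shTug1 arrays and on neither control and was at least 2.21-fold higher (adjusted p = 0.00575), a call lost with normexp (fitted difference 0.44, adjusted p = 0.0933). Mterf3, a factor that binds mitochondrial DNA and represses its transcription, was higher by 3.67 (SE 1.09, adjusted p = 0.0346), with −6.25 (not above background) and −1.50 on the control arrays. It was 1.30 without control replicate 1 and 6.04 without control replicate 2, so its size rests on the dim array, and it lost its call after quantile normalization (adjusted p = 0.0896). Mterf1a and Mterf1b, near-identical copies of the mitochondrial termination factor gene whose probes may read both, fell by 1.78 (SE 0.30, adjusted p = 0.0111) and 1.38 (SE 0.28, adjusted p = 0.0157). For clone 3 alone, 2 of the 17 rose (Twnk and Polg, the mitochondrial DNA polymerase) and 2 fell (Mterf1a and Mterf1b).

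Among 22 genes of mitochondrial RNA processing and stability, 4 rose, 9 fell and 9 did not pass, with a median of −0.74. Trmt10c, a subunit of the mitochondrial RNase P, rose by 2.42 (SE 0.55, adjusted p = 0.0185; well above background on 1 of 2 control arrays; 1.40 without control replicate 1, adjusted p = 0.0384), while Hsd17b10, another subunit of that enzyme, fell by 1.61 (SE 0.35, adjusted p = 0.0177). Supv3l1, the helicase of mitochondrial RNA decay, rose by 1.96 (SE 0.45, adjusted p = 0.0192; 1.19 without control replicate 1, adjusted p = 0.0438), and Slirp, an RNA-binding protein that stabilises mitochondrial messengers, fell by 1.71 (SE 0.40, adjusted p = 0.0198; −1.11 without control replicate 1, adjusted p = 0.0471) but not past the threshold after quantile normalization (−0.82, adjusted p = 0.0643).

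Among 33 partners and regulators of PGC-1 coactivators, 1 rose, 15 fell and 17 did not pass, with a median of −0.86. The one that rose was Prkag1, a regulatory subunit of the energy sensor AMPK, by 1.35 (SE 0.34, adjusted p = 0.0234; 0.0516 without clone 2 replicate 1, and a difference of 0.90 without control replicate 2, adjusted p = 0.0163). Ncoa1, a coactivator of nuclear receptors, fell by 1.73 (SE 0.30, adjusted p = 0.0121), whereas its other 2 probes gave −0.38 and −0.18 (adjusted p = 0.318 and 0.679). Yy1, a transcription factor that works with PGC-1α, fell by 1.66 (SE 0.31, adjusted p = 0.0136).

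The list of NRF1 and GABP partners and family members had 2 of 13 higher, 5 lower and 6 that did not pass, and its median was 0.67 beside −0.64 for all genes; for clone 3 alone it was −0.35 beside −0.46, and the list itself was not tested. Ets2, an ETS factor like GABPA, rose by 2.60 (SE 0.46, adjusted p = 0.0122) and Sp1, a zinc-finger factor of GC-rich promoters, by 1.89 (SE 0.50, adjusted p = 0.0251; 0.97 without control replicate 1, adjusted p = 0.0405). Gabpb1, the partner subunit of GABPA, fell by 1.58 on its brightest probe (SE 0.32, adjusted p = 0.0155). The other tested Gabpb1 probe was well above background on the 4 shTug1 arrays and on neither control. It entered the test only through the shTug1 groups and was called higher (at least 2.08-fold on the scale used here, adjusted p = 0.0103). That p rests on control arrays that did not measure the probe, and its values under other scalings are not given here. Whether the Gabpb1 probes truly moved in opposite directions is therefore not settled. Elk1 fell by 1.39 (SE 0.31, adjusted p = 0.0184), and by 0.23 (adjusted p = 0.37) after quantile normalization.

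Of 32 nuclear genes for respiration that serve as targets of these factors, 4 rose, 15 fell and 13 did not pass, with a median of −0.89. Idh3a, a subunit of the NAD-dependent isocitrate dehydrogenase, rose by 1.92 (SE 0.31, adjusted p = 0.0103), and Tomm70a, a receptor of the mitochondrial import complex, by 1.54 (SE 0.42, adjusted p = 0.028), a call lost without control replicate 1 (0.93, adjusted p = 0.104). Alas1, the first enzyme of haem synthesis, fell by 1.59 (SE 0.33, adjusted p = 0.0162). Sdhb, a subunit of complex II, fell by 1.57 on its brightest probe (SE 0.34, adjusted p = 0.017; −0.53, adjusted p = 0.081, after quantile normalization) and rose by 1.29 on another (adjusted p = 0.0266). After quantile normalization 4 of the 32 rose and 2 fell, and with no scaling 7 rose and 0 fell, so the larger number of falls in this list depends on the scaling. No transcript encoded in mitochondrial DNA could be matched to a probe, and their levels were not analysed here. Between the clones, 0 of the 117 listed genes tested passed in limma (1.49% of all genes did, 0.41% higher and 1.09% lower), and 15 had an unadjusted p below 0.05.

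**Figure D5:**
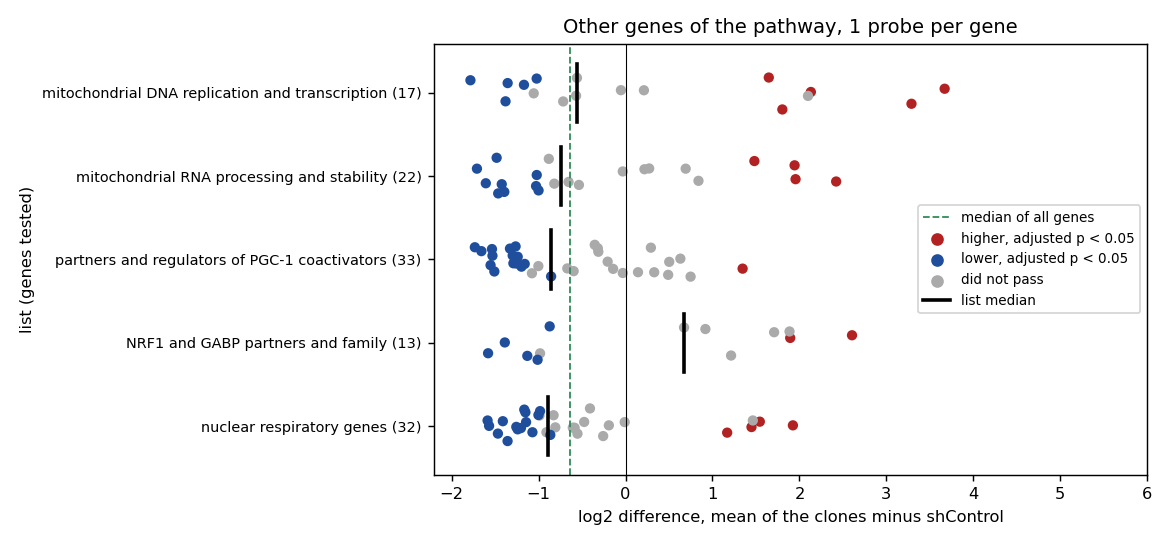
Log2 difference of the mean of the clones from control (horizontal axis) for each tested gene of the 5 lists (1 point per gene, spread vertically for visibility), coloured by whether it passed and in which direction, with a black bar at the list's median and a dashed line at the median of all genes (−0.64). Genes that rose and genes that fell stand in every list, from 5 and 5 of 17 for DNA replication and transcription to 1 and 15 of 33 for coactivator partners.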

How the data were processed

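RNA was measured on 6 one-colour Agilent arrays (Cy3), 2 per group, with groups and replicate numbers from the sample titles. The scanner files deposited by the authors hold an intensity for each spot, background-subtracted per the file headers. The submitters' processing notes name Agilent Feature Extraction, version 11.0.1.1. The authors also deposited a value table with log2 values for 19819 probes; no source used here gives its normalization, and it followed the scanner values of each array (r from 0.998 to 1, medians from 8.98 to 9.13, not centred). Symbols came from RefSeq by accession (27234 of 39429 probes matched).

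Levels are log2 processed signals minus each array's 75th percentile over 43020 gene spots. Outlier spots were dropped and repeat spots averaged. Testing needed a probe to be well above background on the 2 arrays of any group. limma 3.58.1 (under R 4.3.3; files were read by data.table, release 1.17.8) fitted a mean for each of the 3 groups (residual degrees of freedom 3, prior 4.61), two-sided, and adjusted over all 25545 probes. No exact test was used for single probes, since 4 against 2 arrays cannot give a p below 0.0667. For a bound, each dim array took its lowest signal well above background, or the probe's own where higher. Bounds hold on the 75th percentile scale only, and other scalings or background corrections can give smaller differences. Tables and plots used Python 3.11.15 with pandas 2.3.3, numpy 2.4.6, scipy 1.17.1 and matplotlib 3.10.9.

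The genes, lists and rules were chosen with earlier results of these data known. Named were Tug1, all members, up to 2 rises and 2 falls of each list for the mean of the clones and up to 1 of each between the clones (none passed), and the 2 genes (on a probe well above background on all 6 arrays) most like each of the 3 members with the widest range; Polg was chosen after its values were seen. Lists used 1 probe per gene, the brightest. Alternatives were other scalings (median of detected probes, quantile, normexp with offset 50 on the median signal, the deposited table, none), filters, 1 probe per gene, a replicate block and leaving out each array. Replicate numbers did not pair the arrays (r of replicate differences from −0.091 to 0.124). 1 podocyte marker is not reported here.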

Additional observations from a re-analysis of the deposited data

Results flagged for a closer look

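The Tfam probe A_52_P351785 differed between the clones, at least 4.57-fold higher in clone 2 than in clone 3 (limma adjusted p = 0.0146). It was well above background on the 2 clone 2 arrays only and entered the test through them. The fitted difference of clone 3 from clone 2, −3.81 (SE 0.44), therefore rests on clone 3 arrays that did not measure it, and it was −0.62 (adjusted p = 0.254) with normexp. Both clones shared 1 scan date and were taken as being on 1 slide. The other 2 Tfam probes differed between the clones by −0.04 and −0.41 (adjusted p = 0.976 and 0.537).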

How the results depend on the processing

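With 2 arrays per group and slide confounded with hairpin, the direction of a fall against control could not be separated from the choice of scaling, and dim probes (Ppargc1a, Ppargc1b and 3 of Nrf1 and Tfam) give bounds at most. The cause of the changes below was not tested. Totals of called probes over the whole array moved as well. With both clones averaged they were 10054 of 25545, but 6884 under quantile scaling and 6226 of 19819 in the deposited table. In clone 3 they were 2297, but 2527 of 19819 in the deposited table. Between the clones they were 475, but 142 under quantile scaling, 575 with normexp and 0 in the deposited table. The counts below were not tested against these totals. Of the 12 tested members' values under the alternatives, 587 kept direction and side of the threshold, 62 lost a call, 28 gained one and 39 changed sign. The number of member probes called against control was 6 for both clones averaged, but 3 after quantile normalization and 2 in the deposited table (0 to 10 leaving out 1 array, 10 without control replicate 2, 1 and 0 without clone 3 replicate 1 and 2). For clone 2 it was 6 of 12, but 2 of 9 in the deposited table and 3 of 8 with 1 probe per gene. For clone 3 it was 2 of 12, but 1 of 12 after quantile or median scaling. It was 1 of 9 in the deposited table, 1 of 16 with no filter and 1 of 8 with 1 probe per gene. Between the clones it was 1, but 0 after quantile normalization and with normexp, and 2 with only the groups compared. The called probe, Tfam A_52_P351785, was not among those tested in the deposited table, with the stricter filter or with 1 probe per gene. The count of 0 in those settings is therefore no retest of it. Over all comparisons 7 probes were called, 2 in the deposited table and 4 with 1 probe per gene (4 to 11). Of the 117 listed genes 65 passed, 37 after quantile normalization, 39 in the deposited table and 39 with no scaling, an alternative added after seeing the data (1 to 90 leaving out 1 array). With the replicate number as a block the counts were 5, 6, 2, 1, 6 and 61, the lost call being Tfb2m (adjusted p = 0.0633), and the 2 arrays of a number share only that number.

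With no scaling these turned sign, given for the mean, clone 2 and clone 3: Nrf1 A_55_P2000077 (0.65, 0.72, 0.58, and −0.14 between the clones), Esrra (0.14, 0.048, 0.23), Tfb1m (0.73, 0.70, 0.76), Tfb2m (0.39, 0.72, 0.071), Polrmt (0.15, 0.10, 0.19), Pprc1 for the mean and clone 2 (0.87, 0.69), and for clone 3 Nrf1 A_52_P376269 (0.53), Gabpa A_52_P152283 (0.93) and Tug1 A_52_P599162 (0.52). In each comparison this setting moved all probes by the same amount. The median of all tested probes was then 0.70, 0.82 and 0.59 for the mean, clone 2 and clone 3, and −0.18 between the clones. For clone 3, quantile normalization turned Nrf1 A_52_P376269 (0.078) and Gabpa A_52_P152283 (0.14), and median scaling (0.0008) and the deposited table (0.14) also turned Gabpa. With normexp the mean and clone 2 turned for Nrf1 A_52_P376269 (−0.68, −0.65) and Tfam A_52_P351785 (−0.47, −0.16), and so did Tug1 A_51_P119401 for the mean (−0.015) and clone 3 (−0.30) and Tug1 A_52_P599162 for the mean (−0.26). Leaving out 1 array turned the mean for Pprc1 (−1.18 to 0.36), Nrf1 A_52_P376269 (−0.12 to 1.06), Gabpa A_52_P152283 (−0.56 to 2.33) and Tug1 A_52_P599162 (−0.029 to 0.36), clone 3 for Pprc1 (−0.73 to 0.81), Nrf1 A_52_P376269 (−1.19 to 0.23), Gabpa A_52_P152283 (−1.52 to 1.37), Tfb1m (−0.56 to 0.072) and Tug1 A_51_P119401 (−0.065 to 2.72), and clone 3 against clone 2 for Tfam A_51_P493720 (−0.097 to 0.018).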
